A study of Mus musculus with 12 samples.

Results

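The genes of the respiratory chain and the ATP synthase were followed in bulk RNA-seq of CD8+ T cells from Panc02 tumours, a transplantable mouse pancreatic cancer line. Members were chosen by symbol: mitochondrially encoded genes beginning with mt-Nd, mt-Co, mt-Cyb or mt-Atp, and nuclear genes beginning with Ndufa, Ndufb, Ndufc, Ndufs, Ndufv, Uqcr, Cox4 to Cox8 or Atp5, with Sdha, Sdhb, Sdhc and Sdhd. Symbols ending in -ps were left out, and at least 120 counts over the 12 libraries were required. Of 56941 genes in the table, 105 were members, 12 mitochondrial and 93 nuclear, and all 105 were among the 18657 genes tested. The prefixes matched 128 symbols, of which 15 were -ps symbols and 8 had too few counts. Just outside the minimum were Cox4i2 with 49 counts, Ndufa4l2 with 8 and Ndufa11b with 3. Cox7b2, Cox8b, Cox8c, Ndufb11b and an extra Atp5o row were at 0. Just inside were Cox7a1 with 321 counts and Cox6b2 with 941. The table spells cytochrome b as mt-Cytb, which the prefix mt-Cyb does not match, so that gene is no member and is given beside the members.

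All mice were wild type C57BL/6J. The sorted cells were viable by DAPI exclusion, positive for CD45.2 and CD8, and either negative or positive for asGM1, the glycosphingolipid asialo-GM1, and no gate on CD3 or the T cell receptor was named. The tumours had been treated with an isotype control antibody or with anti-PD-1, which gave 4 groups of 3 libraries: isotype asGM1-negative, isotype asGM1-positive, anti-PD-1 asGM1-negative and anti-PD-1 asGM1-positive. The sources used here did not give age, dose or timing, or say whether libraries came from separate or pooled mice, so the p-values speak of library-to-library spread, part of which may be technical. Values listed for a group are in the order of replicates 1, 2 and 3.

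The respiratory chain sits in the inner mitochondrial membrane. Complex I takes electrons from NADH and complex II from succinate, complex III passes them to cytochrome c, and complex IV hands them to oxygen, while the proton gradient that complexes I, III and IV build drives complex V, the ATP synthase. Complexes I, III, IV and V each combine subunits from mitochondrial DNA, which is transcribed inside the organelle as long precursor RNAs, with nuclear subunits that are imported, whereas complex II is wholly nuclear. In T cells, respiratory capacity is linked to persistence and memory, and its loss to exhaustion in tumours.

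By complex, the mitochondrial members were 7 subunits of complex I, 3 of complex IV and 2 of complex V. The nuclear members were 40 subunits of complex I with 8 of its Ndufaf assembly factors, 4 genes of complex II, 8 of complex III, 16 of complex IV and 17 of complex V. Ndufb4b, Ndufb4c, Ndufs6b and Cox6c2 are near-identical copies of other members, and the mitochondrial genes have relatives in nuclear DNA. How reads with several matches were counted was not given in the sources used here, so these values carry that uncertainty.

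The mitochondrial genes lie close together, and neighbours share bases. On chromosome M of GRCm38, mt-Atp8 (chrM:7766-7969) and mt-Atp6 (chrM:7927-8607) overlap by 43 bases, mt-Atp6 and mt-Co3 (chrM:8607-9390) by 1 base, and mt-Nd4l and mt-Nd4 by 7 bases. Of the members, mt-Nd6 alone is on the minus strand, and it overlaps the end of mt-Nd5 by 14 bases. The largest overlap is shown because counts of the ATP synthase pair cannot be fully told apart. Capitals mark the start codon of mt-Atp6 and the stop codon of mt-Atp8 on the plus strand.
mt-Atp8 and mt-Atp6 overlap, chrM:7927-7969: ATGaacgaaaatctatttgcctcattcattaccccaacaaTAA

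Library totals ran from 58.1 to 73.2 M counts (M for mega). Values are CPM, in which each library's counts are made to total 1 M, with TMM normalisation. On that scale 3 counts, the upper limit that a count of 0 allows, correspond to 0.0406 to 0.0524 CPM. Such limits cover counting error only. Summed CD8 T cell markers (Cd3d, Cd3e, Cd3g, Cd8a, Cd8b1, Cd2, Trac, Trbc1, Trbc2) were 9920 to 14400 CPM in every library. Summed markers of other cells reached at most 516 CPM for macrophages, 489 for plasmacytoid dendritic cells, 119 for CD4 and regulatory T cells, 55.7 for NK cells, 25.8 for tumour and stroma and 7.16 for B cells. In bulk RNA, fewer cells of a type and less RNA per cell cannot be told apart.

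Per kilobase of merged exons, mitochondrial members were the more abundant. Merged exons join all annotated exons of a gene, so a nuclear value is too low where the transcript present was shorter. Their median mean level was 220 CPM per kb, with mt-Co1 at 966, mt-Co3 at 657 and mt-Atp6 at 628 CPM per kb, and mt-Nd3 lowest at 12.8. The median over the 92 nuclear members with a length was 48 CPM per kb, led by the catalytic ATP synthase subunits Atp5b at 324 and Atp5a1 at 250, with the complex IV subunit Cox6a1 at 285 CPM per kb between them. The level exceeded 100 CPM per kb in 9 of 12 mitochondrial and 18 of 92 nuclear members.

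Among the groups, summed mitochondrial RNA was highest in isotype asGM1-negative cells and lowest in isotype asGM1-positive cells. The 12 mitochondrial members summed to 5606, 5115 and 3642 CPM in isotype asGM1-negative libraries and to 3408, 3473 and 2501 CPM in isotype asGM1-positive libraries. Under anti-PD-1 the asGM1-negative sums were 3787, 4390 and 3495 CPM, and the asGM1-positive sums 3207, 2873 and 4628 CPM. The isotype populations did not overlap, whereas replicate 3 of anti-PD-1 asGM1-positive cells lay above every anti-PD-1 asGM1-negative library. The group means were 4788 ± 1020, 3127 ± 543, 3891 ± 456 and 3569 ± 932 CPM (SD, n = 3 each) in the order in which the groups were named.

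Summed nuclear RNA differed less between populations. It was 11973, 10419 and 10886 CPM in isotype asGM1-negative and 11049, 11735 and 11002 CPM in isotype asGM1-positive libraries. Under anti-PD-1 the asGM1-negative libraries had 9149.2, 10398 and 9704.3 CPM, and the asGM1-positive libraries 9701.2, 10353 and 11321 CPM. All 3 anti-PD-1 asGM1-negative libraries lay below the isotype asGM1-negative libraries, the highest of them by a small margin (10398 against 10419 CPM).

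The log2 ratio of the mitochondrial to the nuclear sum put the populations apart under isotype only. It was -1.09, -1.03 and -1.58 in isotype asGM1-negative libraries, and -1.70, -1.76 and -2.14 in isotype asGM1-positive libraries. Under anti-PD-1 it was -1.27, -1.24 and -1.47 in asGM1-negative and -1.60, -1.85 and -1.29 in asGM1-positive libraries. The isotype asGM1-positive mean was lower by a log2 difference of -0.63, a ratio of 0.646, against an SD within groups of 0.27. Under anti-PD-1 the difference was -0.25, a ratio of 0.842, and the libraries overlapped. Between treatments it was -0.10 in asGM1-negative and 0.28 in asGM1-positive cells, both with overlap. These sums are descriptions, with no test, and adding mt-Cytb moved the 4 differences to -0.61, -0.23, -0.12 and 0.26.

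**Figure D1:**
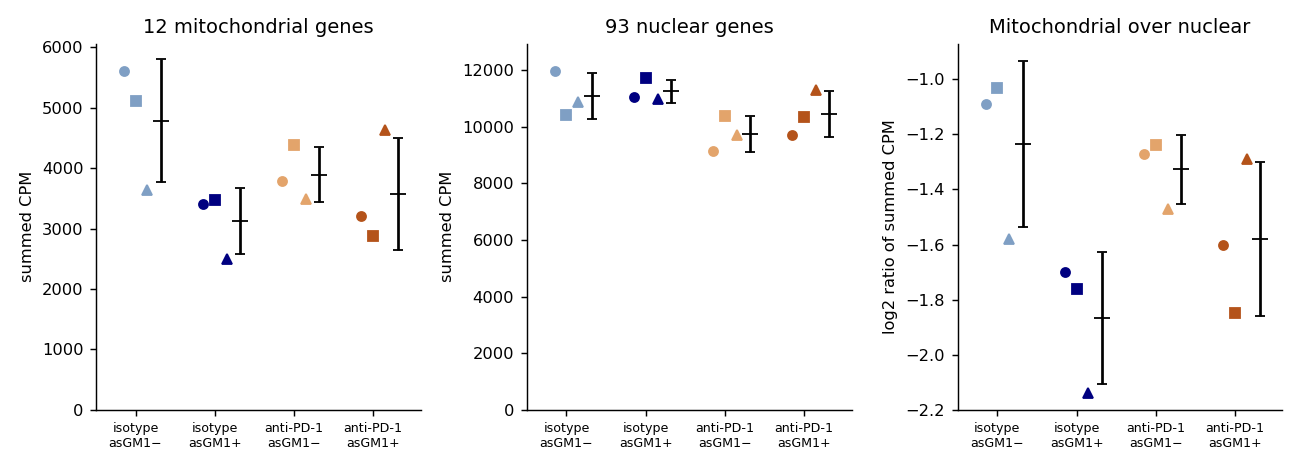
Summed CPM of the 12 mitochondrial genes (left) and the 93 nuclear genes (middle), and the log2 ratio of these sums (right), in the 4 groups; circles, squares and triangles are replicates 1, 2 and 3 and bars are mean ± SD. In the right panel the isotype asGM1-positive libraries (-2.14 to -1.70) lie below the isotype asGM1-negative ones (-1.58 to -1.03), while the anti-PD-1 groups overlap.

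Under isotype treatment, every mitochondrial member was estimated lower in asGM1-positive than in asGM1-negative cells, yet none passed edgeR's quasi-likelihood test at a Benjamini-Hochberg adjusted p under 0.05. Over all genes this comparison called 1.31%, and of the 105 members 1, the nuclear gene Cox6a2. The log2 fold changes of the 12 mitochondrial members ran from -1.0 to -0.38 with a median of -0.58, beside a median of -0.08 for the 93 nuclear members and 0 for all genes tested. All 12 had an unadjusted p under 0.05 in this direction, against 6.59% of all genes, and 9 had ranges that did not overlap, against 8.4%. The exceptions, mt-Nd4, mt-Nd5 and mt-Co1, overlapped. The 12 genes are transcribed as long precursor RNAs and were read in the same libraries, so these counts are not 12 independent results.

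Among the complex I subunits, mt-Nd1, a core subunit at the quinone-binding end, had 580, 483 and 417 CPM in isotype asGM1-negative and 379, 350 and 338 in isotype asGM1-positive libraries. For mt-Nd2, a proton-pumping subunit, the values were 202, 143 and 106 against 88.8, 93.6 and 60.0 CPM. For mt-Nd3, the least abundant, they were 8.63, 5.76 and 5.38 against 3.87, 3.66 and 2.35 CPM. In these 3 genes each asGM1-positive library lay below each asGM1-negative one. The estimates were -0.47 ± 0.15 (SE), -0.90 ± 0.30 and -1.0 ± 0.26, with edgeR adjusted p of 0.187, 0.227 and 0.101.

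The pumping subunits mt-Nd4 and mt-Nd5 overlapped between the populations, with mt-Nd4 at 448, 394 and 248 against 243, 249 and 137 CPM. For mt-Nd5 the values were 332, 356 and 222 against 242, 207 and 173 CPM. Without overlap, mt-Nd4l, which shares 7 bases with mt-Nd4, had 14.7, 13.2 and 10.5 against 10.2, 7.09 and 10.1 CPM. The minus-strand gene mt-Nd6 had 121, 101 and 74.5 against 66.3, 63.8 and 41.0 CPM, also without overlap. Their estimates were -0.80, -0.55, -0.49 and -0.79 in the order mt-Nd4, mt-Nd5, mt-Nd4l and mt-Nd6.

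The complex IV core subunits include mt-Co1, which carries the oxygen-reducing centre and was the most abundant member, at 2070, 2020 and 1270 CPM in isotype asGM1-negative and 1270, 1380 and 756 CPM in isotype asGM1-positive libraries. Its ranges overlapped, and its estimate was -0.66 ± 0.27. For mt-Co2, which receives electrons from cytochrome c, the values were 430, 356 and 288 against 244, 242 and 220 CPM (-0.60 ± 0.17, edgeR adjusted p = 0.133). For mt-Co3 they were 752, 650 and 510 against 449, 488 and 385 CPM (-0.53 ± 0.17, edgeR adjusted p = 0.200). Both of these were lower in each asGM1-positive library than in any asGM1-negative library.

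The ATP synthase subunit mt-Atp6, part of the proton channel, came closest to the threshold. It had 581, 530 and 433 CPM in isotype asGM1-negative and 367, 347 and 333 CPM in isotype asGM1-positive libraries (-0.56 ± 0.13, edgeR adjusted p = 0.0682). Its overlapping neighbour mt-Atp8 had 62.5, 59.1 and 53.8 against 46.9, 41.5 and 46.6 CPM (-0.38 ± 0.11, edgeR adjusted p = 0.136). Neither gene's groups overlapped. Outside the members, mt-Cytb of complex III had 765, 706 and 628 against 527, 468 and 500 CPM (-0.49 ± 0.12, edgeR adjusted p = 0.0987).

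**Figure D2:**
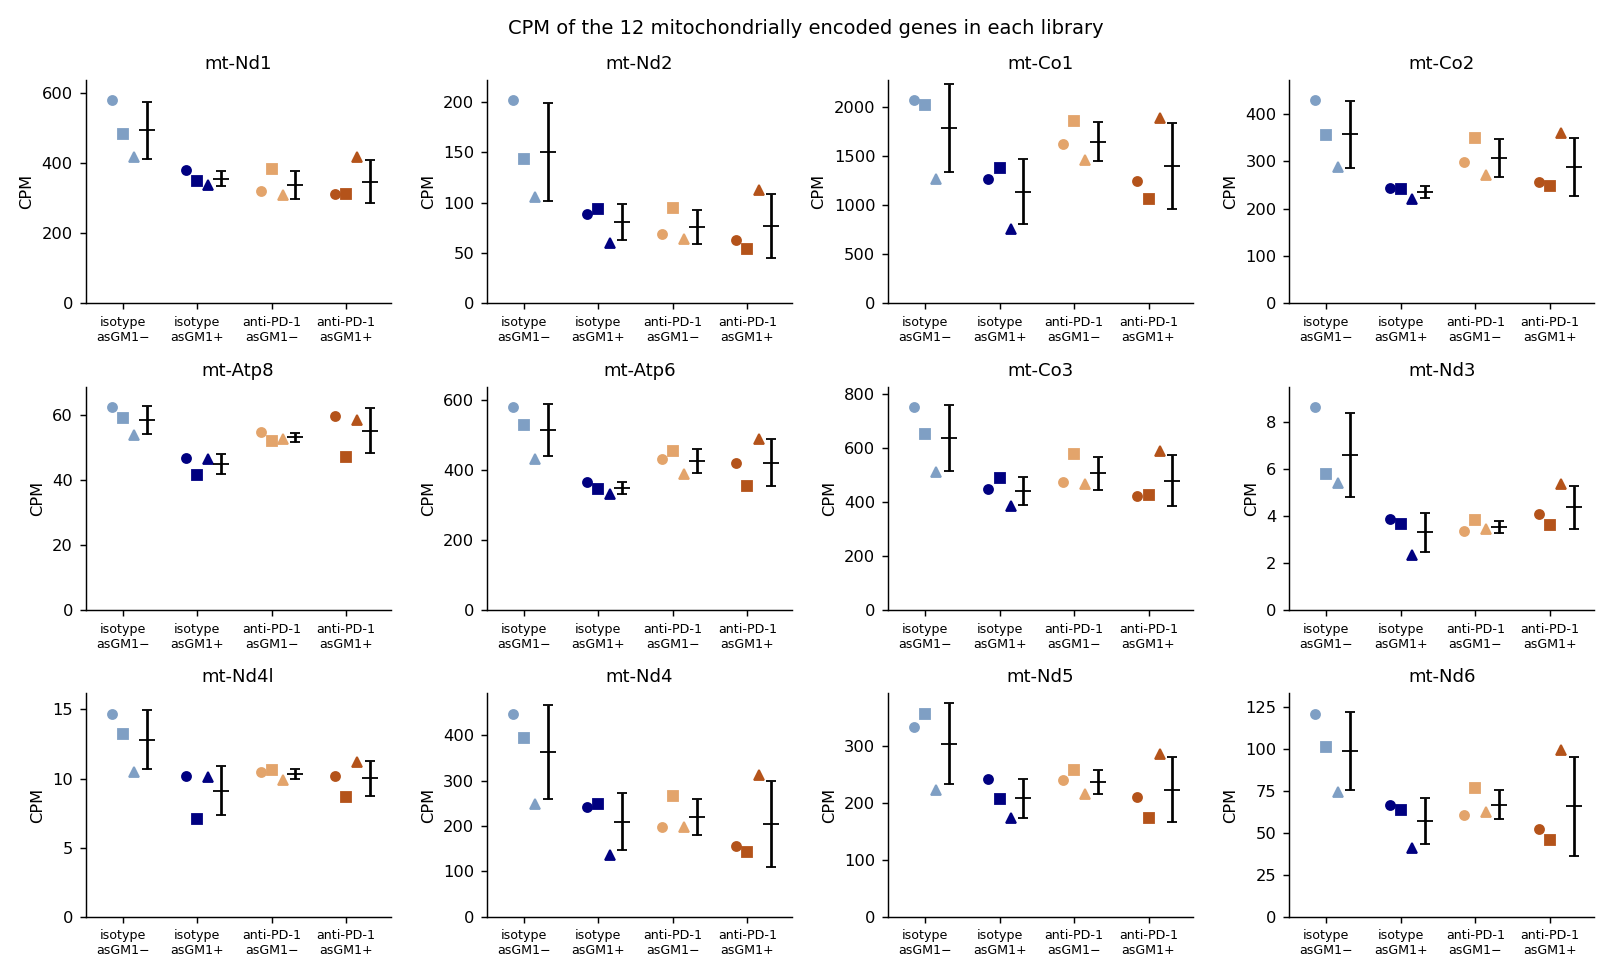
CPM of each of the 12 mitochondrial members in the 12 libraries, in their order along the mitochondrial genome; circles, squares and triangles are replicates 1, 2 and 3 and bars are mean ± SD. In 9 of the 12 panels the isotype asGM1-positive libraries lie below all isotype asGM1-negative ones, and in none do the anti-PD-1 populations separate.

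The asGM1-negative and asGM1-positive libraries of one treatment and replicate number deviated together from their group means, so a fit with that pair as a replicate block was also made. It called 3.94% of all genes and 5 members. Lower in asGM1-positive cells under isotype were mt-Nd3 (-1.0, edgeR adjusted p = 0.0394), mt-Atp6 (-0.55, adjusted p = 0.0437) and Cox6a2 (adjusted p = 0.0234). Higher were Sdhc (0.36, edgeR adjusted p = 0.0338) and Uqcrc1 (0.27, adjusted p = 0.0490). Within pairs, the log2 ratio of mitochondrial to nuclear sums differed by -0.61, -0.73 and -0.56 under isotype and by -0.33, -0.61 and 0.18 under anti-PD-1, where pair 3 went the other way.

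Markers of other cells moved with the population. In asGM1-positive against asGM1-negative isotype libraries, 8 of 14 macrophage markers rose and their summed level was 370 to 516 against 233 to 261 CPM. Of 9 plasmacytoid dendritic cell markers 8 fell, with sums of 147 to 226 against 322 to 489 CPM, and CD4 and regulatory T cell markers summed to 27.3 to 34.7 against 57.2 to 90.7 CPM, with 1 of 4 lower. Under anti-PD-1, where the mitochondrial sums overlapped, these sums were 320 to 488 against 209 to 269, 198 to 228 against 286 to 342, and 21.4 to 36.3 against 57.1 to 119 CPM, with 7 of 14 higher, 6 of 9 lower and 2 of 4 lower. In isotype asGM1-positive libraries the plasmacytoid dendritic cell markers Siglech, Ly6d and Ccr9 were at most 0.236, 0.382 and 0.819 CPM. The sum of those markers there thus came mostly from others of the list. With the pair block, Cd4 and Cd40lg were also called lower under isotype (3 of 4), and the NK cell marker Klrb1c, the heat shock genes Hspa1a and Dnajb1 and the mitosis genes Aurkb, Ccnb1 and Plk1 higher. The block added Ms4a7, Eomes and the mitosis gene Bub1 as higher and Cd79b as lower under anti-PD-1. Already without the block, the mitosis genes Cdk1, Birc5, Aurkb, Top2a, Ccnb1 and Plk1 were called higher under anti-PD-1, and none lower. Their log2 fold changes there ran from 0.84 to 0.99. The B cell marker Cd79b was already called lower under isotype (-1.47, edgeR adjusted p = 0.0346). The part of these cells and genes in the mitochondrial values was not tested.

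The mitochondrial rRNAs mt-Rnr1 and mt-Rnr2 are a further readout of mitochondrial RNA and varied more between replicates. In replicate 3 of isotype asGM1-positive cells, the library with the lowest mitochondrial sum, mt-Rnr1 was 22.7 CPM and mt-Rnr2 127 CPM, against at least 102 and 298 CPM in the other libraries. Neither rRNA passed in any of the 7 contrasts.

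The nuclear members shifted less than the mitochondrial members under isotype. Of 93, 67 were estimated below 0 and 26 above it, and 7 had ranges apart and higher, against 7.94% of all genes, and 1, Cox6a2, apart and lower. Complex II, which has no mitochondrial subunit, was the only complex with every nuclear member above 0, at a median of 0.13 over its 4 genes. Sdhc, a membrane anchor of complex II, had 80.7, 88.1 and 86.7 CPM in isotype asGM1-negative and 102, 120 and 107 CPM in isotype asGM1-positive libraries, without overlap (0.36 ± 0.10, edgeR adjusted p = 0.110). In anti-PD-1 libraries it had 76.7, 88.3 and 84.3 against 89.2, 93.7 and 104 CPM (0.20 ± 0.10, adjusted p = 0.451).

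Averaged over both treatments, Sdhc rose in asGM1-positive cells by a log2 fold change of 0.28 ± 0.07 (edgeR adjusted p = 0.0404). It was 1 of 2 members called in that average, against 3.59% of all genes, and it kept the call in 2 of the 12 fits that each left out 1 library, those without replicate 1 of either asGM1-positive group, with adjusted p between 0.0422 and 0.11. Of the other complex II genes, the flavoprotein Sdha and the iron-sulphur subunit Sdhb overlapped between the isotype populations, at 296, 339 and 404 against 316, 359 and 434 CPM and at 265, 221 and 238 against 259, 288 and 240 CPM. The anchor Sdhd was apart and higher, at 219, 215 and 216 against 226, 261 and 234 CPM. With the pair block, the average called 8.6% of all genes and 5 members, adding Ndufv1 (0.17, edgeR adjusted p = 0.0445), Uqcrc1 (0.19, adjusted p = 0.0310) and Atp5b (0.16, adjusted p = 0.0414), each higher in asGM1-positive cells.

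The nuclear members at the ends of each complex were small in change under isotype. Uqcrc1, a core protein of complex III, had 374, 386 and 434 against 487, 441 and 515 CPM (0.27 ± 0.11, edgeR adjusted p = 0.346), apart and higher in asGM1-positive libraries. Uqcrb of complex III was at -0.20, Cox4i1 of complex IV at 0.00 and Atp5pb of complex V at 0.13.

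Cox6a2, the heart and muscle isoform of a complex IV subunit, fell in asGM1-positive cells under both treatments. Its values were 9.97, 4.13 and 3.68 CPM in isotype asGM1-negative libraries and 0, 0.153 and 0 CPM in isotype asGM1-positive libraries, and 2.27, 3.93 and 2.92 CPM against 0 in all 3 libraries under anti-PD-1. The isotype means differed 116-fold, with 11 counts behind the lower mean (edgeR log2 fold change -6.72 ± 1.0, adjusted p = 0.0137). Under anti-PD-1, asGM1-positive cells were at least 58-fold lower, against the limit of 3 counts in a library (edgeR adjusted p = 0.0112). Without replicate 1 of isotype asGM1-negative cells, the isotype adjusted p was 0.0537.

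Cox6a2 is also known as a marker of plasmacytoid dendritic cells, and most of the other listed markers were called lower with it. The exceptions were Bst2, which was called under neither treatment, and Tcf4 and Runx2, which were called under isotype only. Siglech, a lectin of plasmacytoid dendritic cells, had 71.3, 46.2 and 58.2 CPM in isotype asGM1-negative and 0, 0.236 and 0 CPM in isotype asGM1-positive libraries. Cd300c and Spib were at 0 in all 6 asGM1-positive libraries. In contrast, the widely expressed partner Cox6a1 had 275, 208 and 197 against 221, 236 and 211 CPM. The part of plasmacytoid dendritic cells in the Cox6a2 values was not tested.

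Other complex IV isoform pairs were dominated by their widely expressed member. Per kilobase, mean Cox6a1 was 285 CPM against 3.32 for Cox6a2, Cox6b1 220 against 1.1 for the testis isoform Cox6b2, and Cox7a2 64.6 against 0.776 for the muscle isoform Cox7a1. Cox8a was at 198 CPM per kb with Cox8b at 0 counts, and Cox4i1 was at 167 with Cox4i2 below the count minimum. Cox7a2l, a factor of supercomplex assembly, was at 52.0 and Ndufa4 at 49.2 CPM per kb. Cox7a1 is so low (0.107 to 0.826 CPM over the 12 libraries) that its fold changes rest on few counts. In none of the 7 contrasts did Cox4i1, Cox6a1, Cox6b1, Cox6b2, Cox7a1, Cox7a2, Cox7a2l or Cox8a pass.

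Under anti-PD-1, the populations differed little in these genes. The comparison called 1.58% of all genes and 1 member, again Cox6a2. The mitochondrial median was -0.03, with 4 members above and 8 below 0 and none with ranges apart. The core subunit mt-Co1 had 1620, 1860 and 1460 CPM in anti-PD-1 asGM1-negative and 1240, 1060 and 1890 CPM in anti-PD-1 asGM1-positive libraries. For mt-Atp6 the values were 433, 455 and 390 against 421, 355 and 488 CPM, and for mt-Nd3 3.36, 3.83 and 3.43 against 4.06, 3.63 and 5.37 CPM. In each of these genes replicate 3 was the highest asGM1-positive library and exceeded all 3 asGM1-negative libraries. The same held for mt-Nd1 (321, 383 and 308 against 313, 311 and 417 CPM), mt-Nd2 (68.6, 94.7 and 64.0 against 63.1, 54.0 and 113 CPM) and mt-Co3 (475, 576 and 465 against 421, 426 and 587 CPM).

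Nuclear members had a median of 0.08 between the populations under anti-PD-1, with 73 of 93 above 0 and 13 apart and higher, against 10.2% of all genes. The smallest p after Cox6a2 belonged to Ndufc2, an accessory subunit of complex I, with 26.6, 32 and 26.6 against 34.8, 33.7 and 39.3 CPM (0.34 ± 0.12, edgeR adjusted p = 0.258). Ends of the other complexes ran from Uqcrh at -0.24 to Uqcrfs1 at 0.18 in complex III and from Atp5md at -0.06 to Atp5b at 0.20 in complex V.

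Whether the population difference changed with treatment was tested by the interaction. It called 0 genes and 0 members by edgeR, with 718 genes higher and 611 lower at an unadjusted p under 0.05, 5 members among them. All 5 members had a higher difference under anti-PD-1, as had 3.85% of all genes at that p. Those were mt-Nd3 (1.30 ± 0.36), mt-Nd1 (0.51), mt-Atp6 (0.55), mt-Atp8 (0.43) and Ndufc2 (0.46). The smallest adjusted p of any member was 0.457. All 12 mitochondrial estimates were above 0, with a median of 0.51, beside 0.13 for nuclear members and 0.01 for all genes. By limma voom 0 genes passed, by DESeq2 136 genes and 0 members, and with the pair block 5 genes (0.0268%) and 0 members. A change with treatment in the population difference of the mitochondrial genes was therefore not shown.

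In asGM1-negative cells, anti-PD-1 was compared with isotype. Of 105 members 6 fell, 0 rose and 99 did not pass, while the comparison called 8.57% of all genes, 4.45% lower, so the share of members called was near that of all genes. The summed nuclear members were lower without overlap (0.879-fold), and the summed mitochondrial members overlapped between the treatments (0.822-fold). The median member was at -0.31 against -0.01 over all genes, 95 of 105 were below 0, and 36 had ranges apart and lower, against 15.8% of all genes. The mitochondrial median was -0.35 and the nuclear median -0.29. This comparison uses the same isotype asGM1-negative libraries as the isotype comparison of populations, so their high mitochondrial values enter both.

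The 6 genes belong to complexes I, IV and V. Ndufab1, the mitochondrial acyl carrier protein and a subunit of complex I, had 74.5, 67.5 and 65.5 CPM under isotype and 48.4, 52.5 and 50.4 CPM under anti-PD-1 (-0.46 ± 0.09, edgeR adjusted p = 0.00799). Ndufa12, an accessory subunit of complex I, had 70.7, 59.4 and 51.2 against 38.5, 41.4 and 39.0 CPM (-0.61 ± 0.14, adjusted p = 0.0205). Atp5g1, which encodes the c-ring subunit of the ATP synthase, had 163, 137 and 137 against 84.5, 113 and 98.7 CPM (-0.56 ± 0.13, adjusted p = 0.0224). No isotype library of these 3 genes reached down to the anti-PD-1 range.

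Cox5a, a matrix-side subunit of complex IV, had 223, 195 and 183 CPM under isotype and 135, 161 and 149 CPM under anti-PD-1 (-0.44 ± 0.11, edgeR adjusted p = 0.0322). Ndufa4, a complex IV subunit that carries a complex I name, had 109, 65.4 and 80.2 against 44.2, 56.5 and 56.2 CPM (-0.70 ± 0.20, adjusted p = 0.0474). The mitochondrial mt-Nd1 had 580, 483 and 417 against 321, 383 and 308 CPM (-0.55 ± 0.15, adjusted p = 0.0403). These 3 also did not overlap. Outside the members mt-Cytb fell, from 765, 706 and 628 to 503, 542 and 477 CPM (-0.46 ± 0.12, edgeR adjusted p = 0.0407).

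Of these calls, Ndufab1 alone passed in all 12 fits that each left out 1 library. Atp5g1 lost its call without replicate 1 of isotype or replicates 1 or 3 of anti-PD-1 asGM1-negative cells. Cox5a lost it without these or replicate 2 of isotype asGM1-negative cells, and Ndufa12 without any 1 of these 4 or replicate 2 of anti-PD-1 asGM1-negative cells. mt-Nd1 passed in 5 of 12 fits (edgeR adjusted p 0.0257 to 0.167), those without replicate 3 of isotype asGM1-negative, 3 of isotype asGM1-positive, 2 of anti-PD-1 asGM1-negative or 1 or 3 of anti-PD-1 asGM1-positive cells. Ndufa4 passed in 3 (adjusted p 0.0285 to 0.201), those without replicate 2 of isotype asGM1-negative or 1 or 3 of anti-PD-1 asGM1-positive cells.

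By complex, every 1 of the 17 nuclear ATP synthase genes was estimated below 0 in asGM1-negative cells, with a median of -0.33, and 38 of 40 nuclear complex I subunits, with a median of -0.30. Complex IV was at -0.29, complex III at -0.22, the complex I assembly factors at -0.13 and complex II at 0.01. Besides mt-Nd1, the mitochondrial genes with ranges apart were mt-Nd2 and mt-Nd3, with the values given above for each group (-0.99 ± 0.30 and -0.90 ± 0.26, edgeR adjusted p = 0.0663 and 0.0521). The lower end of complex I was mt-Nd2. The ends of other complexes were Uqcr11 at -0.52 and Uqcrc1 at 0.10 in complex III, and Atp5a1 at -0.06 in complex V. Sdha of complex II was at 0.19 and Sdhb at -0.08, neither past the test.

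**Figure D3:**
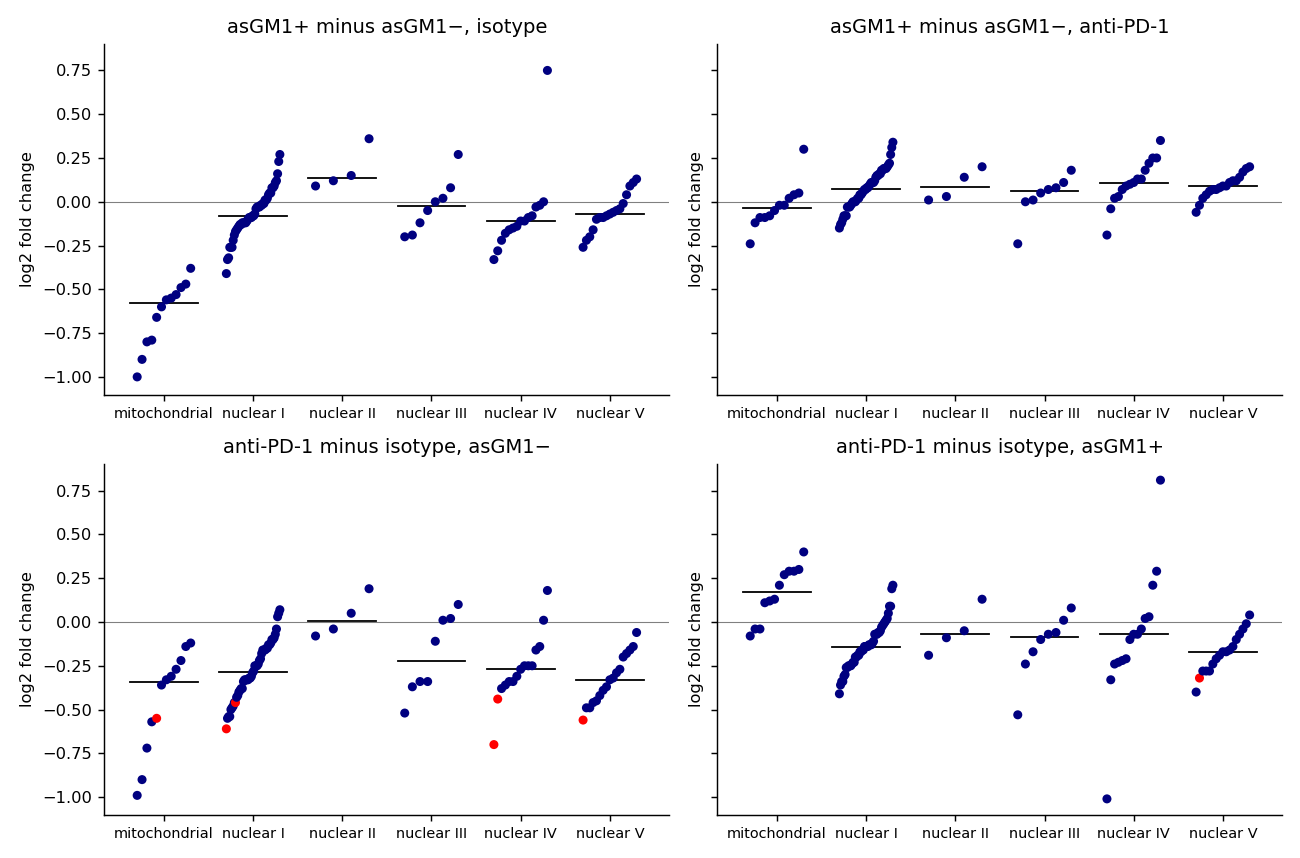
Log2 fold changes of the members in the 4 comparisons of single groups, by complex, with 1 point per gene, a line at the median and red for an edgeR adjusted p under 0.05; assembly factors are shown with nuclear complex I and Cox6a2, with values near 0 in asGM1-positive cells, is left out. The mitochondrial median is -0.58 in the upper left panel and near 0 (-0.03) in the upper right, and the 17 complex V genes of the lower left panel all lie below 0.

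In asGM1-positive cells, 1 member fell under anti-PD-1, while the comparison called 6.73% of all genes and 3.01% lower. It was Atp5pb, a peripheral stalk subunit of the ATP synthase, with 377, 407 and 346 CPM under isotype and 281, 302 and 322 CPM under anti-PD-1, without overlap (-0.32 ± 0.09, edgeR adjusted p = 0.0461). The call held in 2 of 12 fits that each left out 1 library, those without replicate 3 of isotype or of anti-PD-1 asGM1-positive cells, with adjusted p of 0.0339 to 0.19 over the 12. Atp5g1 had 141, 152 and 126 against 94.0, 104 and 121 CPM, also apart, at -0.40 ± 0.13 (edgeR adjusted p = 0.102).

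In asGM1-positive cells, the counts of members with ranges apart were near the shares of all genes. Of 93 nuclear members 76 were below 0, with a median of -0.14, and 12 were apart and lower, against 12.2% of all genes. Of 12 mitochondrial members 9 were above 0, with a median of 0.17, and mt-Atp8 and mt-Co2 were apart and higher, as were 11.8% of all genes. No mitochondrial member passed, and the log2 difference of their sums, 0.18, was -0.03 without replicate 3 of anti-PD-1 asGM1-positive cells. For mt-Atp8 the values were 46.9, 41.5 and 46.6 CPM under isotype and 59.7, 47.1 and 58.5 under anti-PD-1 (0.29 ± 0.11, edgeR adjusted p = 0.139). The lowest estimates by complex were Ndufaf8, an assembly factor of complex I, at -0.41, Uqcr11 at -0.53 and Cox6a1 at -0.33, none past the test.

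Averaged over the populations, which uses all 12 libraries, 15 nuclear members fell and 0 members rose under anti-PD-1, against 9.02% lower and 18.1% called among all genes. Those shares are over genes of every length, and shares by length are given below. Complex I held 8 of the 15, complex V 5 and complex IV 2. Of 93 nuclear members 86 were below 0, with a median of -0.21. No mitochondrial member passed, and their median was -0.12. The gene of smallest p was Ndufab1 (-0.35 ± 0.06, edgeR adjusted p = 0.00237), with 71.6, 66.0 and 65.2 CPM in isotype asGM1-positive and 54.3, 57.4 and 60.3 CPM in anti-PD-1 asGM1-positive libraries, beside the asGM1-negative values above.

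Next by p were Atp5g1 (-0.48 ± 0.09, edgeR adjusted p = 0.00444), Ndufa12 (-0.49 ± 0.10, 0.00556), Atp5pb (-0.30 ± 0.06, 0.00591) and Cox5a (-0.34 ± 0.08, 0.0110). These 4 and Ndufab1 passed in every fit that left out 1 library. In Ndufab1 and Atp5pb the highest of the 6 anti-PD-1 libraries, at 60.3 and 322 CPM, lay below the lowest of the 6 isotype libraries, at 65.2 and 328 CPM. Atp5g1 was also apart, at 121 against 126 CPM, as was Ndufa12, at 48.7 against 51.2 CPM. In Cox5a, replicate 3 of anti-PD-1 asGM1-positive cells, at 187 CPM, reached into the isotype range of 183 to 223 CPM.

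Another c-ring gene, Atp5g3, had 329, 286 and 272 CPM and 274, 299 and 270 CPM in the isotype groups, asGM1-negative first, and 189, 241 and 218 CPM and 195, 235 and 284 CPM under anti-PD-1 (-0.35 ± 0.10, edgeR adjusted p = 0.0287). Ndufb2, an accessory subunit of complex I, had 36.4, 25.4, 24.5 and 27.4, 27.7, 26.4 CPM against 19.1, 19.7, 20 and 20, 20.9, 27.1 CPM (-0.41 ± 0.11, adjusted p = 0.0292). Atp5o, the oligomycin sensitivity subunit of the stalk, had 193, 164, 166 and 162, 190, 153 CPM against 120, 143, 129 and 126, 147, 168 CPM (-0.31 ± 0.09, adjusted p = 0.0330). In all 3 genes replicate 3 of anti-PD-1 asGM1-positive cells reached into the isotype range.

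The remaining 7 were Atp5j, Ndufs7, Ndufa4, Ndufb11, Ndufb4, Ndufc1 and Ndufa8, with log2 fold changes from -0.46 (Ndufa4) to -0.29 and edgeR adjusted p from 0.0333 to 0.0495. Ndufs7 is a core iron-sulphur subunit of complex I and Atp5j a stalk subunit of the ATP synthase. Each of the 10 genes after Cox5a lost its call in at least 7 of the 12 fits that left out 1 library. The number of members called was 5 or 6 without replicate 1 of isotype asGM1-negative, 1 or 2 of isotype asGM1-positive, 1 or 3 of anti-PD-1 asGM1-negative, or 1 or 2 of anti-PD-1 asGM1-positive cells. It was 27 without replicate 3 of anti-PD-1 asGM1-positive cells.

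**Figure D4:**
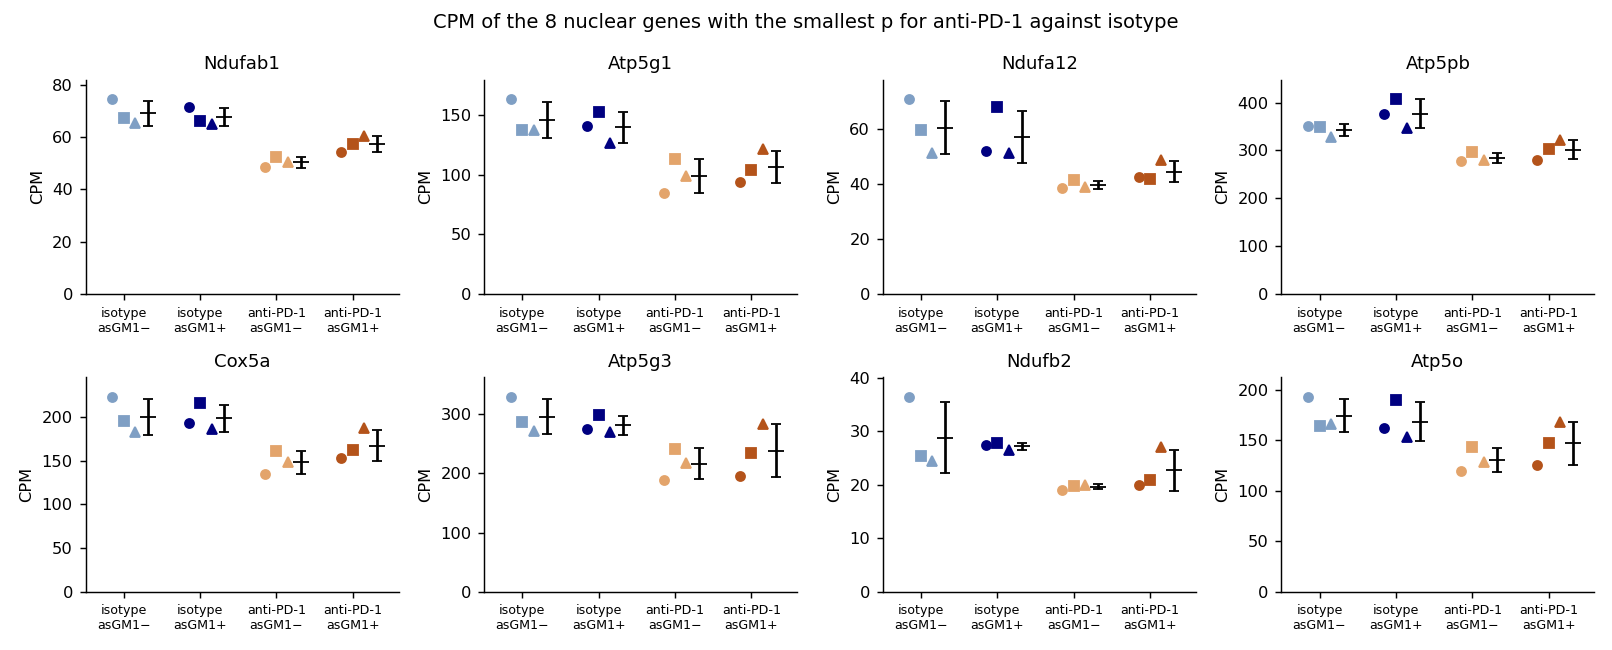
CPM in the 12 libraries of the 8 nuclear members with the smallest p for anti-PD-1 against isotype averaged over populations; circles, squares and triangles are replicates 1, 2 and 3 and bars are mean ± SD. In the upper row every anti-PD-1 library lies below every isotype library, and in the lower row replicate 3 of anti-PD-1 asGM1-positive cells (triangle) reaches into the isotype range.

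Gene length, taken as merged exons, moved with the treatment difference. Merged exons join all annotated exons of a gene and can exceed the transcript that was present. Ndufab1 (6883 bases) and Atp5g1 (4912 bases) are in the longest class by this measure. Over all protein-coding genes in asGM1-negative cells, the median log2 fold change was -0.32 for genes with up to 1000 bases of merged exons, -0.15 for over 1000 and up to 2000, -0.03 for over 2000 and up to 4000, and 0.07 for over 4000 bases. In the same classes the nuclear members had medians of -0.34 (23 genes), -0.27 (36), -0.14 (22) and -0.27 (11). In asGM1-positive cells all genes were at -0.20, -0.14, -0.07 and 0.07 and the nuclear members at -0.20, -0.14, -0.12 and -0.14. The members are short genes on the whole, and up to 2000 bases in asGM1-positive cells their medians equalled those of all genes of like length. In the average, 2 of 23, 6 of 36, 3 of 22 and 4 of 11 nuclear members were called lower. The shares of all protein-coding genes in these classes were 18.9%, 18.2%, 13.6% and 7.61%. Up to 2000 bases the members' share was therefore not above that of all genes of like length.

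An offset for gene length was therefore fitted, an alternative chosen after seeing the data. With it the nuclear medians were -0.16 in asGM1-negative cells, -0.06 in asGM1-positive cells and -0.11 averaged. Of the 15 genes of the average 10 kept their call, and Ndufc1 (edgeR adjusted p = 0.123), Ndufa4 (0.0601), Ndufb4 (0.0646), Ndufb11 (0.118) and Ndufa8 (0.129) did not, while Ndufaf4 was added. In asGM1-negative cells 7 members were called lower, 5 of the 6 above with Atp5g3 and Atp5o. In asGM1-positive cells Atp5pb lost its call and 2 mitochondrial members rose, mt-Atp6 (0.38, edgeR adjusted p = 0.0276) and mt-Co2 (0.39, adjusted p = 0.0429). For the isotype populations the offset called 4 members, all lower in asGM1-positive cells, Cox6a2 with mt-Atp6 (-0.45, adjusted p = 0.0313), mt-Co2 (-0.49, 0.0364) and mt-Nd3 (-0.82, 0.0478). The part of length in these differences was not tested further.

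**Figure D5:**
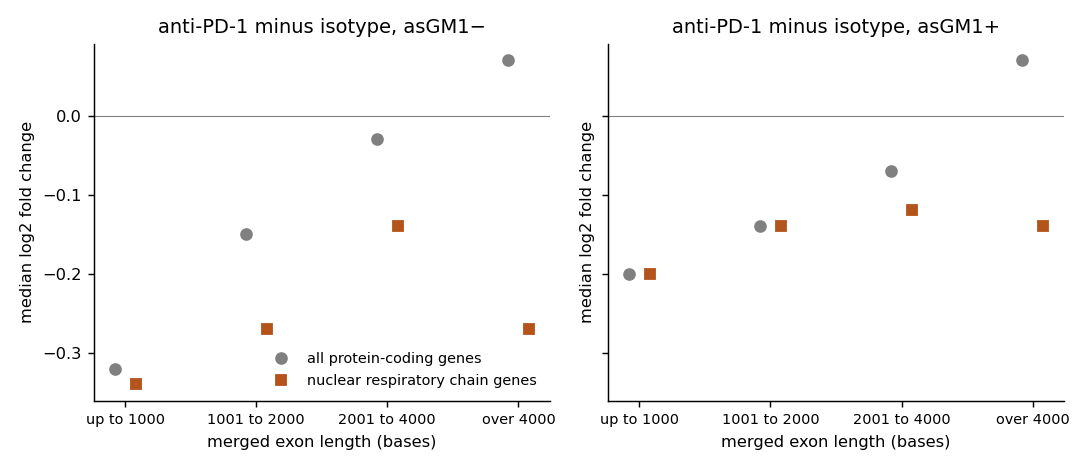
Median log2 fold change of anti-PD-1 against isotype by merged exon length for all protein-coding genes (grey circles) and the nuclear members (orange squares), in asGM1-negative (left) and asGM1-positive cells (right). The medians of all genes run from -0.32 to 0.07 and from -0.20 to 0.07 with length, while the nuclear members stay below 0 in every class.

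Other RNA moved with the treatment too. Heat shock genes (Hspa1a, Hspa1b, Dnajb1, Hsph1, Hspa8, Hsp90aa1) summed to 2950 to 3850 CPM in isotype and 2040 to 2600 CPM in anti-PD-1 libraries, and 5 of 6 fell in the average. Of these, Hspa1a was 151 and 146 CPM in replicate 2 of both anti-PD-1 populations and 22.5 to 32.6 CPM in the other anti-PD-1 libraries. Mitosis genes summed to 1110 to 1520 CPM in isotype, 647 to 764 CPM in anti-PD-1 asGM1-negative and 1130 to 1330 CPM in anti-PD-1 asGM1-positive libraries, with 6 of 8 lower under anti-PD-1 in asGM1-negative cells. Single cell type markers were called too, in both directions. In asGM1-positive cells Cd8a (log2 fold change -0.48), Cd3g (-0.57), C1qa (-1.08) and Klrb1c (-2.62) fell. Cd68 (0.63), Itgam (1.82) and Runx2 (0.83) rose there. In asGM1-negative cells Itgam (1.35) and Runx2 (0.46) rose. The part of all these genes and cells in the respiratory chain values was not tested. Without both replicate 2 libraries of anti-PD-1, 5 members fell in the average: Ndufab1, Atp5g1, Atp5pb, Ndufa12 and Cox5a, which are the 5 with the smallest p above.

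Genes that serve the chain from outside the member rule were read from lists. Of 78 mitochondrial ribosomal proteins, which translate the mitochondrial mRNAs, 9 fell under anti-PD-1 in asGM1-negative cells, 1 in asGM1-positive cells and 27 in the average, beside 4.45%, 3.01% and 9.02% lower among all genes. None was called higher, and the medians were -0.25, -0.18 and -0.22. The 1 in asGM1-positive cells is a smaller share than that of all genes. These shares are over genes of every length, and the lists were not compared with genes of like length. Of protein-coding genes with up to 1000 bases of merged exons, 11.2% were lower in asGM1-negative cells and 18.9% in the average. For over 1000 and up to 2000 bases these shares were 9.68% and 18.2%. In asGM1-negative cells the smallest p were those of Mrps18b (-0.51, edgeR adjusted p = 0.00634), Mrpl18 (-0.45, 0.00796), Mrpl23 (-0.71, 0.0109) and Mrps15 (-0.40, 0.0115), and in asGM1-positive cells Mrpl40 fell (-0.48, 0.0302). Of 24 measured import genes, 3 fell in asGM1-negative cells, 1 in asGM1-positive cells and 7 in the average, read against the same shares of all genes and with the same limit of length. The intermembrane chaperone Timm8a1 fell in both populations, from 29.9, 22.0 and 27.6 to 13.3, 14.8 and 15.3 CPM in asGM1-negative cells (-0.87, edgeR adjusted p = 0.00366) and by 0.52 (log2, adjusted p = 0.0481) in asGM1-positive cells. The import channel gene Tomm40 (-0.41, adjusted p = 0.0261) and Timm50 (-0.43, adjusted p = 0.0378) fell in asGM1-negative cells.

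Of 45 further electron transfer and assembly genes, 2 fell in asGM1-negative cells: Sdhaf1, an assembly factor of complex II (-0.63, edgeR adjusted p = 0.0174), and Etfa, a subunit of the electron transfer flavoprotein (-0.32, adjusted p = 0.0400). That count is near the share of all genes called lower there (4.45%), as is that of the next list. In asGM1-positive cells 0 passed, and 5 fell and 1 rose in the average. Of 28 genes for mitochondrial DNA and RNA, 1 fell in asGM1-negative cells, the ribosomal RNA methyltransferase Tfb1m, with 8.31, 10.1 and 9.63 CPM against 5.21, 5.94 and 6.66 CPM (-0.65 ± 0.17, edgeR adjusted p = 0.0386). In the average, which called 18.1% of all genes, calls in this list went both ways. Tfb1m (-0.47) and Top1mt (-0.58) fell, and Mtpap (0.41), Fastkd3 (0.40) and Polg (0.26) rose. Neither Polrmt, the mitochondrial RNA polymerase, at 26.6 to 47.2 CPM, nor Tfam, which packages and activates mitochondrial DNA, at 34.9 to 49.3 CPM over the 12 libraries, passed in any contrast. Without the pair block, none of 13 tricarboxylic acid cycle genes passed in the 4 single-group comparisons or the averages, and 0 genes of the mitochondrial DNA and RNA list passed between the populations.

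The pair block added calls in these lists between the populations, all higher in asGM1-positive cells. In the average, where it called 8.6% of all genes, these included the tricarboxylic acid cycle enzyme Mdh2 (0.18, edgeR adjusted p = 0.0455), the ribosomal protein Mrpl10 (0.20, adjusted p = 0.0413), and Tomm40 (0.20, adjusted p = 0.0396) and Timm50 (0.19, adjusted p = 0.0455), beside the import gene Tomm40l, which passed in both fits. Under isotype they were Tomm40l (0.38, edgeR adjusted p = 0.0331) and Foxred1, a complex I assembly factor (0.39, adjusted p = 0.0491), and under anti-PD-1 Mrpl18 (0.35, adjusted p = 0.0458).

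Among 11 measured nuclear regulators of respiratory genes, 2 rose under anti-PD-1 in both populations. Nrip1, a corepressor of oxidative metabolism, rose from 40.7, 36.1 and 44.3 to 109, 86.6 and 89.2 CPM in asGM1-negative cells (1.23 ± 0.20, edgeR adjusted p = 0.00319) and from 25.9, 25.3 and 37.8 to 105, 90.8 and 65.1 CPM in asGM1-positive cells (1.55 ± 0.20, adjusted p = 0.00078). Hif1a, the oxygen-regulated transcription factor, rose from 311, 258 and 445 to 833, 667 and 740 CPM (1.14 ± 0.23, adjusted p = 0.0117) and from 259, 206 and 308 to 768, 880 and 510 CPM (1.48 ± 0.24, adjusted p = 0.00324). Myc, a transcription factor of growth genes, fell in asGM1-negative cells from 76.5, 59.8 and 104 to 32.4, 41.3 and 44.7 CPM (-1.02 ± 0.24, adjusted p = 0.0219). In each of these pairs of groups the libraries did not overlap. Ppargc1a, a coactivator of mitochondrial biogenesis, was at 0 in 10 of 12 libraries and at most 0.099 CPM, too low to test.

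Promoters of the genes lower under anti-PD-1 were searched for motifs of factors known to act on respiratory genes. RefSeq windows of the 250 bases before the start (GRCm38.p6) were at hand for 76 of the 93 nuclear members, 15 of them the genes lower in the average. Motifs were matched as exact letters on both strands: GCGCA, any base and GCGC for NRF1, CCGGAAG for ETS factors and AAGATGGC for YY1. The NRF1 motif was in 14 of 76 members (18.4%) against 4.23% of 27025 genes, the ETS motif in 14 (18.4%) against 7.83%, and the YY1 motif in 1 (1.32%) against 1.83%. These 27025 genes are all those with a window, including genes not tested here. They were not matched to the members for expression or base content. Among the 15 lower genes, the NRF1 motif was in 2 (13.3%), Ndufb4 and Ndufa8, and the ETS and YY1 motifs in 1 each (6.67%), both in an alternative window of Atp5j. The windows of Ndufb4 and Ndufa8 are printed because they hold the NRF1 letters, in capitals, and that of Ndufab1 because it is the gene of smallest p and holds none of the 3 motifs. All are on the minus strand and read 5′ to 3′.
Ndufb4, chr16:37654369-37654618: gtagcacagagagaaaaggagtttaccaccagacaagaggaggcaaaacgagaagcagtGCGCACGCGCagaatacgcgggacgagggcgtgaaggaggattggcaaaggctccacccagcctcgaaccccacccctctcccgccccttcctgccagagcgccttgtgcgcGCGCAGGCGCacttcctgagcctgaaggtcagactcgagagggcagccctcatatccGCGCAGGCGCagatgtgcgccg
Ndufa8, chr2:36049339-36049588: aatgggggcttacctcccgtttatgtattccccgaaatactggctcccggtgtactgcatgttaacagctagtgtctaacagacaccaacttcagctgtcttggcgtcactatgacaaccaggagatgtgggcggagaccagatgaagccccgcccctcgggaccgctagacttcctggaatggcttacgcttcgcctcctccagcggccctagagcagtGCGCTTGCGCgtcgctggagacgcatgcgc
Ndufab1, chr7:122101849-122102098: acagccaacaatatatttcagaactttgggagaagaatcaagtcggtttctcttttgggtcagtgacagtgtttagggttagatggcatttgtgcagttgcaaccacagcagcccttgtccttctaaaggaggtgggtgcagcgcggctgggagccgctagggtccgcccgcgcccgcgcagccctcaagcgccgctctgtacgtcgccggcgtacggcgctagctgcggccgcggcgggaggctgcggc
A match is a run of letters, not a shown binding site.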

How the data were processed

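RNA was extracted with TRIzol, and a TruSeq mRNA kit and a SMARTer Ultra low input kit were named, per the labels' protocols. Per the submitters' processing notes, which give no order or role, the tools and build were HISAT2, StringTie and mm39. Their versions and settings, the annotation, and the use of strand and of multi-mapping reads are not given in the sources used here. As deposited by the authors, the table holds whole-number counts per gene, 1 column per library. Whether they tallied reads or derived counts from StringTie coverage was not given, which matters for overlapping genes.

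Counts were tested with edgeR 4.0.16 (quasi-likelihood F test, R 4.3.3, limma 3.58.1) in a joint fit of 12 libraries with 4 group means, after filterByExpr by group and TMM scaling (factors 0.97 to 1.04). Adjusted p are Benjamini-Hochberg over 18657 genes, with a threshold of 0.05 in 7 contrasts: population under each treatment, treatment in each population, the average of each, and the interaction. Residual degrees of freedom were 8 and the biological coefficient of variation 0.336, and the script was tested on simulated data. The 310 genes without a symbol stayed in totals and tests. Every replicate pair differed beyond counting noise, with chi-square statistics 43.5 to 121 times their degrees of freedom.

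Same-numbered libraries of one treatment were checked for pairing by the correlation of their deviations from group means, which was 0.31, 0.35 and 0.47 under isotype and 0.53, 0.26 and 0.28 under anti-PD-1. All exceeded 0.1, so a fit with the pair as a block is given beside the population results whose calls it changes. Lengths are merged exons of GENCODE M21 (GRCm38), found for 104 of 105 members and 96.8% of genes tested, and promoter windows are from RefSeq (GRCm38.p6). These builds differ from mm39 and served for names, lengths and sequence.

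Named were all mitochondrial members, the complex II genes, complex IV isoform partners, up to 8 called nuclear members per direction and contrast (the 2 of smallest p where fewer passed), the extremes of each complex among genes of at least 10 mean CPM, and up to 4 called genes per pathway list. Some genes are not reported here. Members, lists and tests were chosen with earlier results of these data known. Alternatives were other scaling (DESeq2 size factors, library totals), no filter, DESeq2 1.42.0, limma voom, fits of only the groups compared, replicate blocks, leaving out libraries or pairs, and a gene length offset. The leaving out of pairs and the length offset were chosen after seeing the data.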

Additional observations from a re-analysis of the deposited data

How the results depend on the processing

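Counts of members called are edgeR's at an adjusted p under 0.05 unless another tool is named. For the populations under isotype (1 called), DESeq2 called 10 members, limma voom 0, a fit of only the groups compared 0, the pair as a replicate block 5, the length offset 4, both together 6, and leaving out both libraries of isotype replicate 3 0, while leaving out single libraries gave 0 to 2. Under anti-PD-1 (1), voom and leaving out both libraries of anti-PD-1 replicate 2 each gave 0, and single libraries 1 to 1. For the average of these (2), library totals, no filter and leaving out either of these pairs each gave 1, DESeq2 4, the block 5, the block with the length offset 6, and single libraries 1 to 2. For anti-PD-1 against isotype in asGM1-negative cells (6), library totals gave 15, DESeq2 20, leaving out anti-PD-1 replicate 2 gave 2, and single libraries 1 to 9. In asGM1-positive cells (1), no filter, only the groups compared and leaving out anti-PD-1 replicate 2 each gave 0, DESeq2 4, the length offset 2, and single libraries 0 to 1. For the average (15), DESeq2 gave 28, leaving out anti-PD-1 replicate 2 gave 5 and isotype replicate 3 25 (24 lower, and Sdha higher), and single libraries 5 to 27. The interaction stayed at 0 members in every alternative run. A block on the replicate number across treatments, which the data did not pair, gave 4 and 11 members for the asGM1-negative and averaged treatment contrasts. Over all genes, DESeq2 called 789 against 244 between the isotype populations and the block 736, and without anti-PD-1 replicate 2 the anti-PD-1 populations differed in 16 against 295. No estimate of a member called as reported or with the pair block changed sign in any alternative. Nor did those of mitochondrial members between the isotype populations. Other members' estimates were not followed for sign, while sums whose ranges overlapped did change it. The cause of these changes was not tested, except that fits on fewer libraries have fewer degrees of freedom.

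The log2 ratio of mitochondrial to nuclear sums between isotype populations stayed between -0.80 and -0.49 when single libraries were left out. In asGM1-positive cells the anti-PD-1 difference of mitochondrial sums ran from -0.03 to 0.32, and in asGM1-negative cells that of the ratio from -0.27 to 0.01, so their signs rest on single libraries. Between the anti-PD-1 populations the difference of mitochondrial sums was -0.15, and 0.08 with replicate 2 of both anti-PD-1 groups left out. Between the isotype populations that of nuclear sums was 0.02, and -0.04 with library totals. Depth limited Cox6a2 and Cox7a1, which had few counts. Separate animals were not stated, and 3 libraries a group limit every test.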
